A study of Mus musculus with 29 samples.

Results

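The genes described here are 7 tendon genes, measured in the tibialis anterior (TA) muscle of ageing mice: Tnmd, Scx, Mkx, Thbs4, Comp, Chad and Kera. They were chosen by name as genes of tendon cells and tendon matrix, and 7 of the 22537 gene symbols in the count table are members. The whole TA of male C57BL/6 mice from a colony for ageing research was taken at 6m (7 mice), 24m (7 mice) and 28m (8 mice, labelled as 28 months or older), and no genotype or treatment separated the groups. Poly-A RNA was sequenced in 29 libraries. The 24m mice were sequenced in a first run with a library of each 6m mouse, and the 28m mice in a second run with another library of each 6m mouse. The 28m mice were therefore compared with the second-run libraries of the 6m mice, and the 24m mice with their first-run libraries. The 2 comparisons use the same 7 young mice, and age cannot be told apart from any other difference between the cohorts of mice.

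Tendon joins muscle to bone, and a dissected TA carries part of its tendon and of the sheets of connective tissue into which the fibres insert. Tendon cells are specified by scleraxis (Scx) and Mohawk (Mkx), transcription factors that bind DNA. Tenomodulin (Tnmd) is a membrane glycoprotein that marks mature tendon cells. The matrix they make is mainly type I collagen, whose fibrils are bound by small leucine-rich repeat proteins such as chondroadherin (Chad) and keratocan (Kera) and by the pentameric thrombospondins Thbs4 and Comp. Thrombospondin-4 is also known from the myotendinous junction, where the fibre membrane meets the tendon, and chondroadherin and Comp are also known from cartilage.

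Scleraxis is a basic helix-loop-helix protein, a class that binds the E-box, whose letters are CANNTG on either strand. The 250 bases before the RefSeq start (build GRCm38.p6) are shown for Tnmd, Thbs4 and Chad, with E-boxes in capitals. They lie at chrX:133850758-133851007 (+ strand), chr13:92794819-92795068 (- strand) and chr11:94564797-94565046 (+ strand).
Tnmd: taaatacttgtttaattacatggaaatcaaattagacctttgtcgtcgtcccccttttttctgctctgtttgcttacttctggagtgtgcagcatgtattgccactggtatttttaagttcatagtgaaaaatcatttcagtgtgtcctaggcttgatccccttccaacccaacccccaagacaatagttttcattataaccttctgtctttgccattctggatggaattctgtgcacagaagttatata
Thbs4: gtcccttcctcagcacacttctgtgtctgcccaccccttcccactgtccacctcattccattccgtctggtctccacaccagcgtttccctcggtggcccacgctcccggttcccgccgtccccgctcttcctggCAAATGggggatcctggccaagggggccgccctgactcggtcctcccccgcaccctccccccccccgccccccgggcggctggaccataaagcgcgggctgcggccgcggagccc
Chad: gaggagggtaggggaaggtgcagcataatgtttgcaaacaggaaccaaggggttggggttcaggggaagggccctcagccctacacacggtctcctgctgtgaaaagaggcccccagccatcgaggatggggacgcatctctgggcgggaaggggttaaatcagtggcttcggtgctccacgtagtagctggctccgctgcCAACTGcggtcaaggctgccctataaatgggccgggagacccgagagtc
The last 28 bases of the Tnmd window lie in the first exon of the gene as GENCODE annotates it. The window of Tnmd held 0 E-boxes, that of Thbs4 held 1 (CAAATG) and that of Chad held 1 (CAACTG). Of 32536 windows of the same length, 66.2% held at least 1. The window of Chad also held TATAAA, on the strand of the gene, as did 7.55% of all windows. Scx, Mkx and Comp had no entry in the set of promoters. Kera had one, whose window held 0 E-boxes and lies inside an annotated exon of the gene, so its letters are not printed. A match is a run of letters and not a bound site.

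All 7 genes were counted in each of the 29 libraries, with Mkx the lowest (8 to 53 counts) and Thbs4 the highest (1729 to 9481 counts). Total counts per library were between 17633475 and 33499162. Levels are given as CPM, the counts scaled to a common library size, after TMM scaling over all 29 libraries. Per kilobase of exon, which allows genes to be compared, the mean levels of the second-run 6m libraries were 43.6 CPM per kb for Thbs4, 6.68 for Chad, 4.98 for Tnmd, 4.29 for Comp, 3.03 for Scx, 2.12 for Kera and 0.262 for Mkx. Thbs4 stood above and Mkx below the other members. The order of the neighbours from Chad to Kera is within the spread between mice. Fibre markers were high, with the summed level of 7 genes such as Ckm and Acta1 between 102185 and 164934 CPM over all libraries. Of 11 cartilage and bone markers in the table, 10 were too low to test. Col9a1, the one tested, reached 142 counts in a library, Col2a1 reached at most 15 counts and Acan at most 6 counts in a library.

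**Figure D1:**
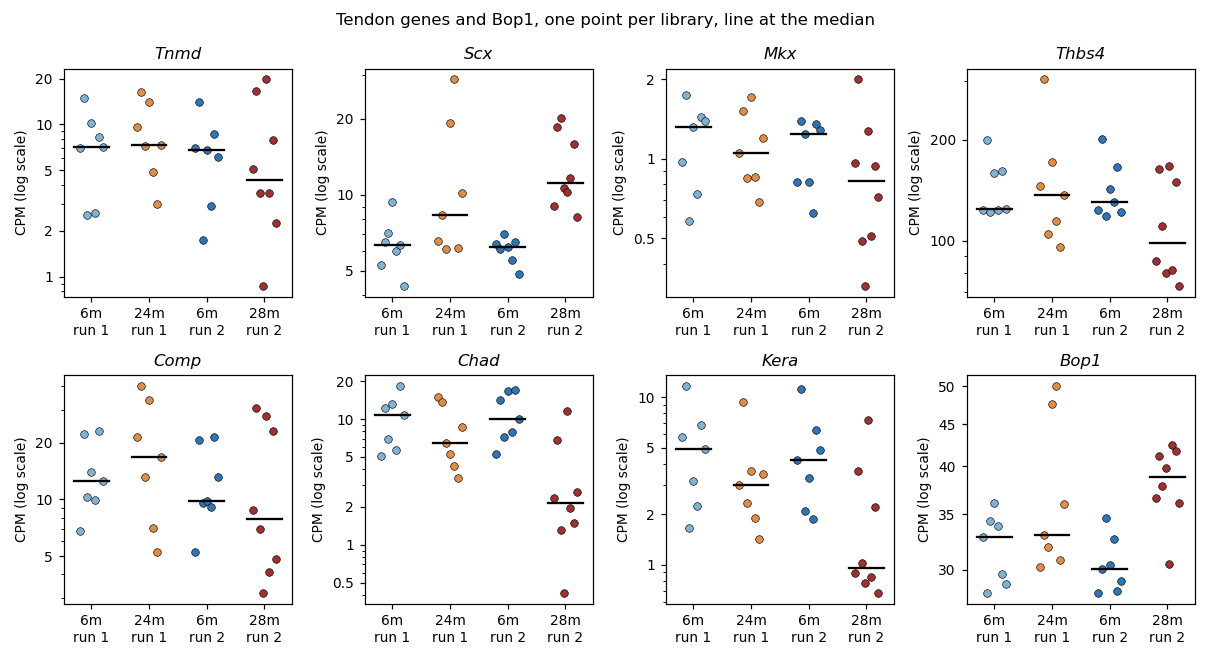
CPM of each tendon gene and of Bop1 (log scale) in the first-run 6m and 24m libraries and the second-run 6m and 28m libraries, with 1 point per library and a line at the median. All 8 Scx points at 28m lie above the 7 second-run 6m points, whose highest value is 7.00 CPM, and 6 of 8 Chad points at 28m lie below the lowest 6m point, at 5.29 CPM.

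At 28m, Scx was higher and Chad lower than at 6m, while the other 5 genes did not pass the test. The test was edgeR's quasi-likelihood F test, adjusted by the Benjamini-Hochberg method for the 12994 genes that passed the filter on low counts, and all 7 members passed that filter. The test called 24.3% of these genes higher and 22.9% lower at 28m, so 1 member higher and 1 lower of 7 is below the share of all genes in both directions. In whole muscle, fewer tendon cells and less RNA per tendon cell cannot be told apart.

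Scx, the transcription factor of tendon progenitors, had between 4.87 and 7.00 CPM (median 6.24) in the 7 libraries at 6m and between 8.14 and 20.2 CPM (median 11.2) in the 8 at 28m. The groups did not overlap, and 6.21% of all genes tested had all 28m mice above all 6m mice. The mean rose from 6.09 ± 0.700 CPM (SD, n = 7) to 13.1 ± 4.56 CPM (SD, n = 8), a log2fc of 1.07 ± 0.18 (SE) with an adjusted p of 0.000718. It passed in all 15 fits that left out 1 mouse, with a log2fc between 0.96 and 1.14. Mice 2, 3 and 7 at 28m had the highest levels, at 18.6, 20.2 and 15.9 CPM.

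Scx, at chr15:76457452-76459458 on the + strand of GRCm38, lies inside Bop1, which is read from the opposite strand and encodes a factor of ribosome assembly. Their exons share 0 bases in the annotation used here, and the strand setting of the counting is not stated, so reads of Scx and reads from introns of Bop1 cannot be told apart. Bop1 was higher at 28m too, with a log2fc of 0.30 ± 0.08 (SE) and an adjusted p of 0.00707. The mean of Bop1 was 30.4 ± 2.43 CPM (SD, n = 7) in young mice and 38.3 ± 3.95 CPM (SD, n = 8) in those of 28m. The ratio of Scx to Bop1 within a library was between 0.168 and 0.230 at 6m and between 0.226 and 0.534 at 28m, and 7 of 8 mice at 28m had a ratio above all 6m mice. The part of Bop1 in the Scx level was not tested.

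Chad, a leucine-rich repeat protein that binds collagen and integrins, had between 5.29 and 17.2 CPM (median 10.1) at 6m. At 28m its level was between 0.411 and 11.53 CPM (median 2.15). In all, 6 of 8 mice at 28m lay below all 6m mice, and mouse 5 (11.53 CPM) and mouse 2 (6.80 CPM) lay within their range. The mean fell from 11.2 ± 4.79 CPM (SD, n = 7) to 3.56 ± 3.74 CPM (SD, n = 8), a log2fc of -1.69 ± 0.50 (SE) with an adjusted p of 0.0127. The fall passed in all 15 fits that left out 1 mouse, and the log2fc reached -2.24 without mouse 5 at 28m. Acsf2, a gene on the opposite strand that overlaps Chad with no shared exonic bases, had a log2fc of -0.59 ± 0.16 (SE) with an adjusted p of 0.0084, and its mean level at 6m was 2.64 CPM.

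Kera, the keratan sulfate protein best known from the cornea, had between 1.88 and 11.2 CPM (median 4.21) at 6m and between 0.675 and 7.34 CPM (median 0.957) at 28m. Here 5 of 8 mice at 28m lay below all 6m mice. Its log2fc of -1.18 ± 0.52 (SE) had an adjusted p of 0.0713 and was not called. Without mouse 5 at 28m, which had the highest level, the log2fc was -1.78 with an adjusted p of 0.00684, the 1 of 15 such fits that called it, and without 6m mouse 2 it was -0.81 with an adjusted p of 0.208. DESeq2 (adjusted p 0.0842) and the first-run 6m libraries (adjusted p 0.0828) gave no call. It was called with limma-voom (-1.48, adjusted p 0.022) and after correction of every library for gene length and GC content (-1.62, adjusted p 0.0148).

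Tnmd, the marker of mature tendon cells, had between 1.75 and 13.98 CPM (median 6.75) at 6m. At 28m it had between 0.864 and 19.9 CPM (median 4.33), so the 28m mice reached both below and above the young mice. Its log2fc was 0.11 with a 95% interval from -0.96 to 1.18 (normal approximation from the SE), and its sign changed with the settings. Comp, whose protein links collagen fibrils, had between 5.25 and 21.5 CPM (median 9.82) at 6m and between 3.17 and 30.8 CPM (median 7.87) at 28m. Its log2fc was 0.07 with an interval from -0.87 to 1.01, and its sign changed with the settings as well. Both intervals hold changes of either sign.

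Thbs4 had between 118.5 and 201 CPM (median 130.7) at 6m and between 73.0 and 167.7 CPM (median 98.6) at 28m, with 5 of 8 mice below all 6m mice. Its log2fc of -0.36 ± 0.19 (SE) had an adjusted p of 0.134. Mkx, the homeobox factor that promotes collagen fibril growth, had between 0.626 and 1.39 CPM (median 1.24) at 6m and between 0.329 and 2.004 CPM (median 0.827) at 28m. Its log2fc of -0.28 ± 0.32 (SE) had an adjusted p of 0.476. In GENCODE, Mkx shares 201 exonic bases with AC148004.2 on the same strand, and where both are annotated, reads there cannot be assigned to either gene. The authors counted with a UCSC annotation, and whether it holds AC148004.2 was not checked.

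The spread between mice was wider at 28m than at 6m for all 7 genes. The SD of log2 CPM rose from 0.98 to 1.46 for Tnmd, from 0.65 to 1.40 for Chad, from 0.71 to 1.30 for Comp and from 0.17 to 0.48 for Scx. A larger SD at 28m was found for 87.7% of all genes tested, so the direction is that of most genes. At 24m the SD was larger than at 6m for 4 members and for 83.55% of all genes tested. It was smaller for Tnmd (0.95 to 0.84), Mkx (0.53 to 0.44) and Kera (0.96 to 0.85). Mice 2, 5 and 7 at 28m held the 3 highest levels of Tnmd, Comp, Thbs4 and Kera. Mouse 4 held the lowest levels of Tnmd (0.864 CPM), Comp (3.17 CPM), Chad (0.411 CPM) and Mkx (0.329 CPM).

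Of the 7 genes, 6 rose and fell together from mouse to mouse. To describe this apart from age, log2 CPM was centred on the mean of each age and run group, and the 2 libraries of a 6m mouse were averaged, which gave 22 mice. Over these mice the Pearson r with Tnmd was 0.89 for Kera (Spearman rho 0.93), 0.88 for Mkx (0.87), 0.86 for Comp (0.88), 0.81 for Thbs4 (0.87) and 0.80 for Chad (0.69). Without the 2 mice farthest from the median of Tnmd, which were mice 4 and 5 at 28m, the r values were 0.91, 0.84, 0.83, 0.80 and 0.64. The 15 pairs among these 6 genes had r between 0.62 and 0.89 with a median of 0.81.

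Of 13454 other genes, the 5 most like Tnmd were Serpinf1 (r = 0.92), Kera, Fmod (0.89), Mkx and Nbl1 (0.88). Serpinf1 encodes a secreted serpin, Fmod encodes fibromodulin of tendon matrix, and Nbl1 encodes a secreted antagonist of bone morphogenetic proteins. Comp ranked 11, Thbs4 35 and Chad 41 in this order. These are descriptions over mice that share dissection, library and run, and no test was made of them.

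Scx did not follow the other 6 genes. Its r with Tnmd was 0.15 (Spearman rho 0.22, and 0.19 without the 2 mice), which ranked 5735 of 13454 genes, and its r with the 6 others was between -0.12 and 0.25. The genes most like Scx were Mkrn1 (0.84), Ric8 (0.83), Bop1 (0.83), Utp18 (0.79) and Rras (0.79). Mkrn1 encodes a ubiquitin ligase, Ric8 a chaperone and exchange factor of G proteins, Utp18 a factor of ribosome assembly like Bop1, and Rras a small GTPase. Bop1, the gene around Scx, thus ranked 3 of 13454.

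**Figure D2:**
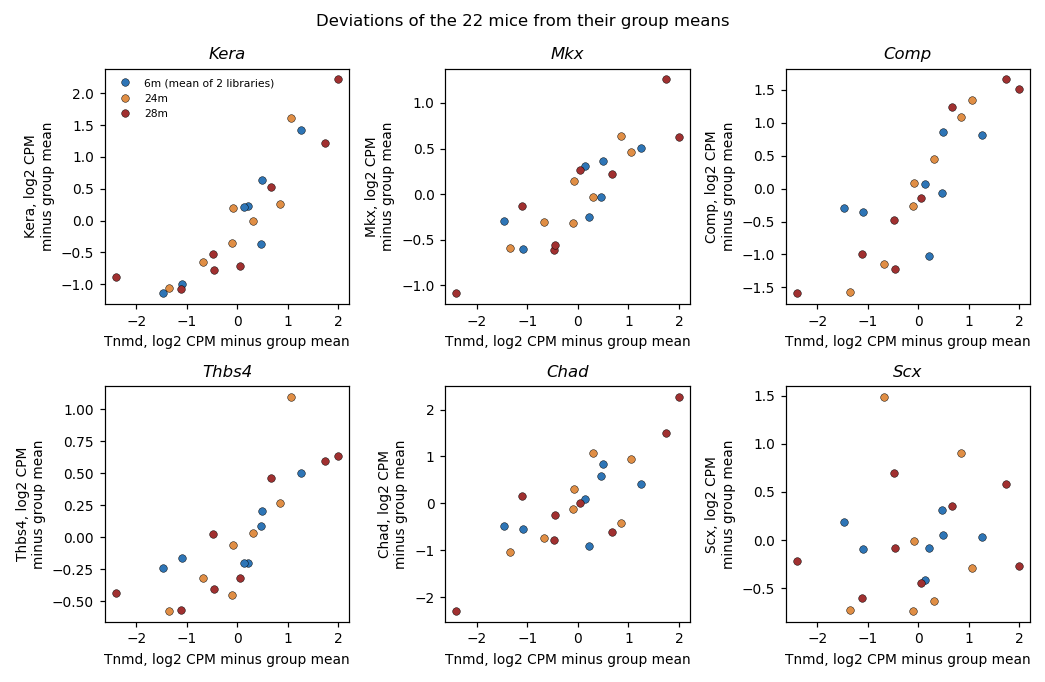
Deviation of log2 CPM from the group mean for 6 genes (vertical axes) against that of Tnmd (horizontal axes), with 1 point per mouse for 7 mice at 6m (mean of their 2 libraries), 7 at 24m and 8 at 28m. Kera, Mkx, Comp, Thbs4 and Chad rise with Tnmd (r between 0.80 and 0.89), and Scx (r = 0.15) does not.

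Because 6 members moved together between mice, the ages were also compared with the log2 CPM of Tnmd in the model, an analysis chosen after the data were seen. It gives the age difference of each gene at equal Tnmd. Of the 6 other members, 4 then passed at 28m, namely Scx higher and Chad, Kera and Thbs4 lower, where the same fit called 26% of 12993 genes higher and 26.4% lower. Chad had a log2fc of -1.93 ± 0.32 (SE, adjusted p 0.000263 by edgeR) and Kera one of -1.27 ± 0.23 (SE, adjusted p 0.000595). Both passed in all 15 fits without 1 mouse.

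The log2fc of Thbs4 at equal Tnmd was -0.34 ± 0.12 (SE, adjusted p 0.0212 by edgeR). It passed in 14 of 15 such fits and had an adjusted p of 0.0527 without the second-run library of 6m mouse 3. Scx, at 1.08 ± 0.18 (SE, adjusted p 0.000361), was as high as without the covariate. Comp (-0.15 ± 0.28 SE, adjusted p 0.66) and Mkx (-0.32 ± 0.24 SE, adjusted p 0.276) were not called. The SE of Chad, Kera, Thbs4, Comp and Mkx was smaller with Tnmd in the model than without it.

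Ratios within single libraries were lower at 28m for Chad and Kera, but not for Comp or Thbs4. The ratio of Chad to Tnmd was between 0.755 and 4.13 (median 1.99) in the second-run 6m libraries and between 0.191 and 1.17 (median 0.469) at 28m, with 7 of 8 mice below all 6m mice. The ratio of Kera to Tnmd was between 0.485 and 1.19 at 6m and between 0.174 and 0.905 at 28m, again with 7 of 8 below. The ratio of Comp to Tnmd lay between 0.748 and 5.45 at 6m and between 1.16 and 3.67 at 28m, inside the range of the young mice. The ratio of Thbs4 to Tnmd had a median of 20.02 at 6m and 20.96 at 28m, with 2 of 8 mice below and 1 above all 6m mice. At 24m the ratio of Chad to Tnmd was between 0.377 and 1.55, where the first-run 6m libraries had between 0.738 and 2.72. The ratio of Kera to Tnmd was between 0.259 and 0.577 (median 0.392) at 24m. In the first-run 6m libraries it was between 0.311 and 0.859 (median 0.782). For each of these 2 ratios, 1 of 7 mice at 24m lay below all 6m mice.

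**Figure D3:**
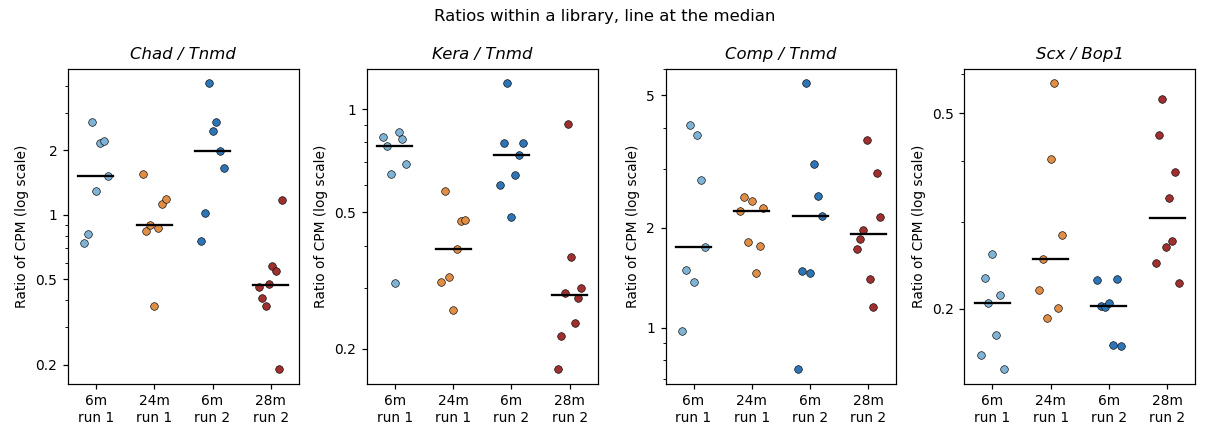
Ratio of CPM within each library (log scale) for Chad, Kera and Comp to Tnmd and for Scx to Bop1, with 1 point per library and a line at the median. For Chad to Tnmd, 7 of 8 points at 28m lie below the lowest second-run 6m point, at 0.755, and for Scx to Bop1, 7 of 8 lie above the highest, at 0.230.

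At 24m, 0 of the 7 members passed the test, where 0.084% of 13103 genes did (11 genes with edgeR and 216 with DESeq2), and 1546 genes had an unadjusted p under 0.05. Scx was the member nearest to it. Its level was between 4.34 and 9.36 CPM (median 6.32) in the first-run 6m libraries and between 6.12 and 28.8 CPM (median 8.35) at 24m. Mice 4 and 5 at 24m, with 19.2 and 28.8 CPM, stood above the rest, and 3 of 7 mice lay above all 6m mice. The log2fc was 0.92 ± 0.34 (SE) with an adjusted p of 0.345, and it was 0.56 without mouse 5. The same mice 4 and 5 held the highest levels of Bop1 at 24m, 47.6 and 50.1 CPM, while the others lay between 30.2 and 36.0 CPM.

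The tendon matrix and membrane genes overlapped between 24m and 6m. Chad had between 5.13 and 18.4 CPM (median 10.9) at 6m and between 3.39 and 14.96 CPM (median 6.50) at 24m, a log2fc of -0.35 ± 0.37 (SE, adjusted p 0.673 by edgeR). Kera had between 1.65 and 11.7 CPM (median 4.93) at 6m and between 1.42 and 9.38 CPM (median 3.01) at 24m, a log2fc of -0.54 ± 0.46 (SE, adjusted p 0.617). Comp had between 6.79 and 23.2 CPM at 6m and between 5.28 and 40.2 CPM at 24m, a log2fc of 0.46 ± 0.42 (SE, adjusted p 0.632). Mouse 2 at 24m held the highest levels of Comp, Thbs4, Tnmd and Kera.

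Thbs4, Tnmd and Mkx had log2fc values at 24m of 0.08 ± 0.24, 0.23 ± 0.41 and -0.07 ± 0.27 (SE), with 95% intervals from -0.39 to 0.54, from -0.58 to 1.04 and from -0.59 to 0.45. With Tnmd in the model, 0 of the 6 others passed at 24m, where 0.0916% of 13102 genes did. Kera came nearest, with a log2fc of -0.80 ± 0.24 (SE), an unadjusted p of 0.00421 in edgeR's test across genes and an adjusted p of 0.276.

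**Figure D4:**
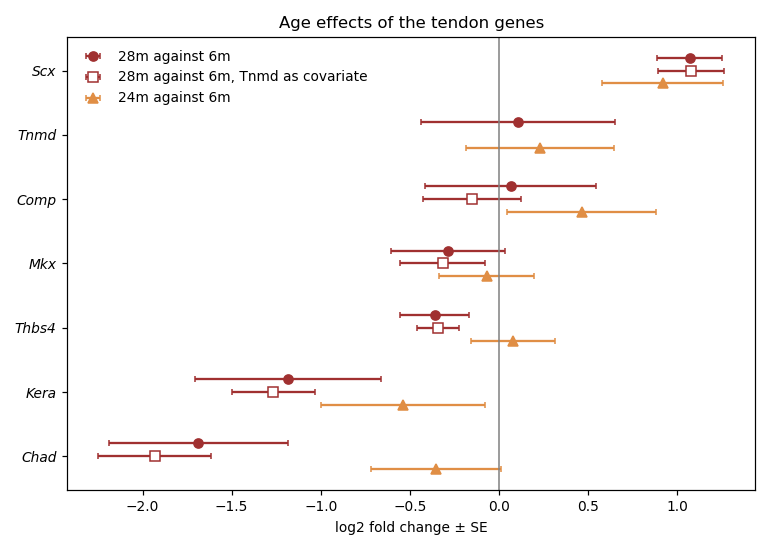
Log2fc (horizontal axis, bars are ± SE) of the 7 genes for 28m against 6m, for 28m against 6m with Tnmd as a covariate, and for 24m against 6m, from edgeR. At 28m Scx lies at 1.07 and Chad at -1.69, and at 24m Scx lies at 0.92 and Chad at -0.35.

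The difference between the age effects at 28m and 24m was tested in 1 model that held age and run for all 29 libraries. It called 0 of 7 members and 0% of all 13455 genes with edgeR, where 1611 genes had an unadjusted p under 0.05 and DESeq2 called 2. For Chad, the 28m effect minus the 24m effect was -1.31 ± 0.66 (SE) with an adjusted p of 0.428, and with the mouse as a replicate block in limma-voom it was -1.76 with an adjusted p of 0.103. For Scx the difference was 0.17 ± 0.40 (SE, adjusted p 0.861), with an interval from -0.61 to 0.95. The calls of Scx and Chad at 28m alone therefore do not show that 28m and 24m differ.

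The 2 libraries of each 6m mouse show how far a library repeats these values. Tnmd had 6.95 and 7.01 CPM in mouse 1, 14.96 and 13.98 in mouse 2, 2.55 and 1.75 in mouse 3, 10.2 and 6.75 in mouse 4, 2.61 and 2.92 in mouse 5, 8.30 and 8.65 in mouse 6, and 7.13 and 6.06 in mouse 7, first run before second. Low and high mice were thus the same in both runs. Chad had 5.13 and 5.29 CPM in mouse 1, the lowest in both runs, and 18.4 and 17.2 CPM in mouse 6, the highest in both.

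On the log2 scale, the SD between the libraries of a mouse was 0.05 for Thbs4, 0.17 for Chad and Kera, 0.18 for Scx and Comp, 0.23 for Tnmd and 0.34 for Mkx. The SD between the 7 mice was 0.28 for Thbs4, 0.66 for Chad, 0.91 for Kera, 0.23 for Scx, 0.67 for Comp, 0.95 for Tnmd and 0.41 for Mkx. The second divided by the first was 5.50 for Kera, 5.47 for Thbs4, 4.24 for Tnmd, 3.84 for Chad and 3.75 for Comp, and the median over 13455 genes was 1.02. For Kera and Thbs4, 98.6% of genes had a smaller quotient. It was 1.28 for Scx and 1.19 for Mkx, whose mice differed little more than their own libraries did.

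No member passed the test between the runs. With the mouse in the model, edgeR called 0 of 7 members and 0% of 12884 genes, with 1052 genes at an unadjusted p under 0.05, and DESeq2 called 0. Comp was lowest in p, with a log2fc of second against first run of -0.16 ± 0.07 (SE, adjusted p 0.498). Mouse 4 agreed least for Scx (9.36 and 6.24 CPM), Tnmd (10.2 and 6.75 CPM), Thbs4 and Comp. Mkx agreed least in mouse 3, Chad in mouse 5 and Kera in mouse 1. Over all genes the log2 difference between libraries had an SD of 0.62 in mouse 4 and 0.24 to 0.28 in the other 6.

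**Figure D5:**
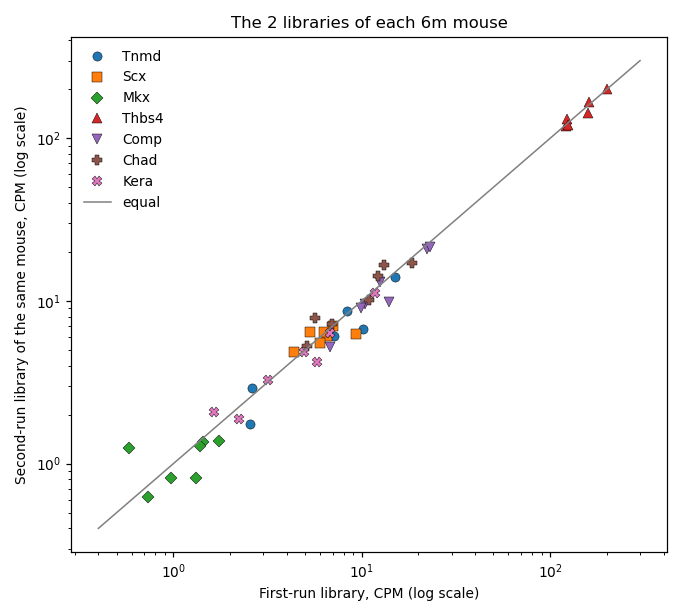
CPM of the 7 genes in the second-run library against the first-run library of the same 6m mouse (both axes log scale), with 1 point per gene and mouse and a line of equal values. The points follow the line, with the largest distances for Mkx in mouse 3 (0.581 and 1.24 CPM) and mouse 4 (1.32 and 0.819 CPM).

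Of 21 other genes of tendon matrix, which do not include the members, 10 passed lower and 0 higher at 28m, where 22.9% of all genes were lower, and their median log2fc was -0.67, beside 0.01 over all genes tested. Those lowest in p were Prelp (-1.10 ± 0.20 SE, adjusted p 0.000968 by edgeR), Col5a1 (-1.44 ± 0.32), Col1a1 (-1.88 ± 0.59) and Col5a2 (-1.10 ± 0.39). Prelp encodes a leucine-rich repeat protein that anchors collagen, and the others encode chains of fibrillar collagens. The collagens are also made by fibroblasts outside tendon. The number of genes lower was 3 when the length and GC trend was removed and 3 against the first-run 6m libraries. The list's median log2fc in these settings was -0.57 and -0.64. At 24m, 0 of the 21 genes passed with edgeR or DESeq2, with a median of 0.06 by edgeR.

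Among 14 regulators of tendon cells, 12 could be tested. Of these, 2 were higher at 28m, the growth factor gene Gdf5 (3.25 ± 0.47 SE, adjusted p 0.000346 by edgeR) and Sox9 (1.23 ± 0.26 SE, adjusted p 0.00212), a factor of the shared progenitors of tendon and cartilage. All 8 mice at 28m lay above all 6m mice for both, which was the case for 6.21% of all genes tested. The mean of Gdf5 was low, at 0.348 CPM at 6m and 3.38 CPM at 28m. Another 4 were lower, among them Smad3 (-1.24 ± 0.21 SE), which transmits TGF-beta signals, Tgfb3 (-0.32 ± 0.10) and Tgfbr2 (-0.28 ± 0.11). The list's median was -0.23. These counts stand beside 24.3% of all genes higher and 22.9% lower. Removing the length and GC trend left 2 higher and 2 lower, and the first-run 6m libraries gave 2 higher and 1 lower. At 24m edgeR called 0 of the 12, and DESeq2 called 1 higher and 1 lower of 13. The log2fc at 24m was 3.37 ± 0.70 (SE, adjusted p 0.0961 by edgeR) for Gdf5 and 1.35 ± 0.50 (SE, adjusted p 0.350) for Sox9. For Gdf5, 6 mice at 24m lay above and 1 below all 6m mice, and for Sox9 2 lay above and 0 below. Gdf5 and the TGF-beta genes also act in muscle cells, and these counts do not separate the sources.

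The families of the members showed the following. Of the 5 thrombospondin genes 0 passed at 28m or 24m with edgeR or DESeq2, with a median log2fc of -0.36 at 28m. Of 13 genes of the leucine-rich repeat matrix family 11 could be tested, and 3 were lower at 28m (Prelp, Chad and Ogn), 0 higher, beside 22.9% of all genes lower. Prelp and Ogn also stand in the list of tendon matrix genes, and Chad is a member. With the length and GC trend removed, 5 of the 11 family genes were lower. Fmod, which encodes fibromodulin, had a log2fc of -0.56 ± 0.37 (SE, adjusted p 0.221 by edgeR), and with Tnmd in the model it was -0.69 with an adjusted p of 0.0044. On the muscle side of the myotendinous junction, 4 of 8 genes were lower, Lama2 (-1.02 ± 0.18 SE), Tln2 (-0.95 ± 0.21), Col22a1 (-0.61 ± 0.16) and Vcl (-0.46 ± 0.17), and 0 higher. They encode a laminin chain, 2 links between integrins and actin, and a collagen of tissue junctions. These counts stand beside 22.9% of all genes lower and 24.3% higher. With the length and GC trend removed, 2 of the 8 were higher and 2 lower, and 3 were lower against the first-run 6m libraries.

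Markers of other cells of the muscle are given beside the 24.3% of all genes that were higher and the 22.9% that were lower at 28m. Of 6 markers of interstitial fibroblasts 4 were lower at 28m, and their summed level was between 158 and 361.2 CPM at 6m and between 108.1 and 233 CPM at 28m. All 4 endothelial markers were lower, with sums from 324.4 to 361.6 CPM at 6m and from 163.2 to 260.9 CPM at 28m. Of the rest, 1 of 4 adipocyte markers (Fabp4) and 1 of 7 fibre markers (Tnnt3) were higher, Myh4 was lower, and 0 of 3 immune, 0 of 1 tested erythrocyte and 0 of 1 tested cartilage markers passed. Against the first-run 6m libraries 0 adipocyte and 0 fibre markers passed, and with the length and GC trend removed 0 fibre markers were higher. The endothelial markers were lower in 3 of 4 cases in both settings, and the fibroblast markers in 3 of 6. The summed level of the 7 tendon genes was between 147.4 and 268.6 CPM at 6m and between 92.2 and 245.7 CPM at 28m, a sum held mainly by Thbs4. The part of these cell types in the levels of Scx, Chad and Kera was not tested.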

How the data were processed

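RNA of the TA was sequenced in 29 libraries of 22 mice. Single-end reads of 75 bases were aligned by the authors with STAR 2.5.4b to mm10, per the submitters' notes and the study's methods, and raw read counts per gene were deposited for 22537 symbols without normalization by the authors. The strand setting of the counting is not given in the sources used here. The design text of the series gives the numbers of mice at 24m and 28m the other way round from the labels of single samples, which were used.

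The members and all gene lists were chosen with earlier results of these data known. Counts were tested with edgeR 4.0.16 in R 4.3.3 (filterByExpr, TMM, quasi-likelihood F test, Benjamini-Hochberg adjustment over all genes tested, threshold 0.05). SEs were derived from the test. Log2 CPM used a prior count of 2. Mice were housed in groups, and which mice shared a cage or litter is not given in the sources used here, so p-values measure the spread between these mice. Both 6m libraries of a mouse carry its name, marked as a repeat in the second run, so their numbers pair them by animal, and the consensus correlation of the pair was 0.735 (limma 3.58.1). They count as 1 mouse in the numbers of mice, but as separate samples in the main test of the difference of the age effects. Positions came from GENCODE on GRCm38, where 20202 genes matched by symbol, 1923 matched a synonym and 412 had no match.

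All 7 members are named, and results for some other genes are not reported here. From each list the genes past the test with the smallest p were named, at most 4 per direction, and the 5 genes most like Tnmd and most like Scx. Bop1 was named as the neighbour of Scx, and Acsf2, Fmod in the adjusted model and the counts of single markers were added after their values were seen. Alternatives were DESeq2 1.42.0, its size factors in edgeR, no filter, limma-voom, 6m libraries of the other run, removal of a trend with length and GC content (splines with 4 degrees of freedom each), leaving out 1 mouse at a time, and the mouse as a block. The model with Tnmd as a covariate was added after the data were seen. The scripts were tested on simulated data. Figures were drawn with matplotlib 3.10.9.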

Additional observations from a re-analysis of the deposited data

Results flagged for a closer look

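Each member was examined in each of the 4 groups of libraries, 28 cases in all, for a mouse whose distance to the nearest other mouse was large against the range of its group (Dixon's 95% limit). Chance gives about 1 such case in 20. Here 3 values were past the limit, and all are high values. Thbs4 stood at 304.5 CPM in mouse 2 at 24m, where the next mouse had 171.8 CPM. Kera stood at 9.38 CPM in the same mouse, where the next had 3.64 CPM. Kera stood at 7.34 CPM in mouse 5 at 28m, where the next had 3.64 CPM. Without that mouse the log2fc of Kera at 28m was -1.78 in place of -1.18 and was called. Without mouse 2 at 24m the log2fc of Kera at 24m was -1.002 in place of -0.54, with an adjusted p of 0.445 by edgeR, and without 6m mouse 2 it was -0.19 with an adjusted p of 0.864. No member's age effect differed between 28m and 24m by the test of the difference.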

How the results depend on the processing

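Scx stayed called higher and Chad called lower at 28m in the settings run for that comparison, and 0 members were called at 24m, for the difference of the age effects or between the runs in those run for each. The length and GC trend and the other 6m libraries were run for 28m and 24m only, the mouse as a block in limma-voom for the difference only, and limma-voom not between the runs. The number of members called at 28m was 2, it was 3 with limma-voom and with the length and GC trend removed (Kera added), and 4 of 6 with Tnmd as a covariate. Leaving out 1 mouse gave 2 to 3. The mouse as a replicate block gave 0 calls for the difference, and 0 members were called between the runs with no replicate block. The direction of members that were not called changed in some settings. At 28m, Tnmd was at -0.25 with limma-voom, -0.042 against the first-run 6m libraries, -0.54 without the length and GC trend and between -0.28 and 0.41 without 1 mouse. Comp at 28m was at -0.28, -0.076 and, with the covariate, -0.15 (limma-voom and the other run first), and between -0.20 and 0.25 without 1 mouse. At 24m, Mkx was at 0.044 against the second-run 6m libraries and between -0.19 and 0.064 without 1 mouse. Thbs4 at 24m was at -0.0095 with limma-voom, -0.10 with the covariate and between -0.19 and 0.18 without 1 mouse. Without 1 mouse, the difference of Tnmd lay between -0.49 and 0.12, the run effect of Scx between -0.11 and 0.035 and that of Thbs4 between -0.032 and 0.013. With the covariate, Comp without 1 mouse lay in the range -0.31 to 0.029 at 28m and -0.13 to 0.18 at 24m. The cause was not tested. Over all genes, 24m calls were 11 with edgeR and 216 with DESeq2. Mkx had the lowest counts of the members (8 to 53) and the largest SD between the libraries of a mouse (0.34 on the log2 scale).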
